A study of Mus musculus with 10 samples.

Results

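Surfactant and alveolar type 2 genes were followed as 10 genes: Sftpc, Sftpb, Sftpa1, Sftpd, Abca3, Lamp3, Napsa, Slc34a2, Lyz1 and Lyz2. They were taken by symbol from the 53465 genes listed for each library, all 10 matched 1 mouse identifier, and all 10 were among the 15695 genes that passed the filter on low counts. The libraries came from whole lung of BALB/c mice, 5 labelled control and 5 challenged intranasally with IL-33, a cytokine that damaged epithelium releases. The dose was 1 µg, in a volume of 35 µL, once daily for 5 days, and lungs were collected 24 hours after the last dose. The series describes the controls as untreated, so instillation and IL-33 cannot be told apart, and the mice's age and sex are not stated. Nothing in the labels says that mice were pooled. PolyA-selected RNA was sequenced and deposited as reads counted per gene, 7805175 to 13767118 per library. A level below is CPM, reads scaled to library size and TMM factors, an error is the SD of 5 libraries unless called SE, and a log2 fold change is IL-33 over control.

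Alveolar type 2 cells make pulmonary surfactant, the film of phospholipid and protein that keeps the air sacs from collapsing. They store it in lamellar bodies, lysosome-related organelles that are released onto the alveolar surface, and they are the stem cells of the alveolar epithelium. SP-B and SP-C are small hydrophobic proteins that work with the lipids, while SP-A and SP-D are collectins, soluble lectins that bind microbes. In lung tissue as a whole, fewer type 2 cells and less RNA per cell cannot be told apart.

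The label fitted the tissue. In controls Sftpc was the 2nd most abundant gene of 53360 by reads per kilobase, and the lowest count of any of the 10 genes in any library was 548 reads. The 10 genes together held 2.55% ± 0.107 of counted reads in controls and 2.09% ± 0.179 with IL-33. The 4 surfactant protein genes held 1.73% ± 0.106 and 1.71% ± 0.135, so the smaller share lay in the other 6 genes.

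Of the 10 genes, 7 fell, 2 rose and Sftpc did not pass the test (edgeR's quasi-likelihood test, Benjamini-Hochberg adjusted p at 0.05). With a correction for transcript length and GC content 8 were lower, Sftpc among them, and 1 higher, Sftpd. Among all tested genes 69.9% passed, 35.1% higher and 34.8% lower, so passing the test is common in these lungs. The median log2 fold change of the 10 genes was -0.65, beside -0.0068 for all tested genes. The 2 groups of 5 libraries did not overlap for 9 of the 10 genes, against 56.5% of all tested genes, and 3 of the 10, Lyz1, Lyz2 and Sftpd, changed at least 2-fold, against 23.3%.

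**Figure D1:**
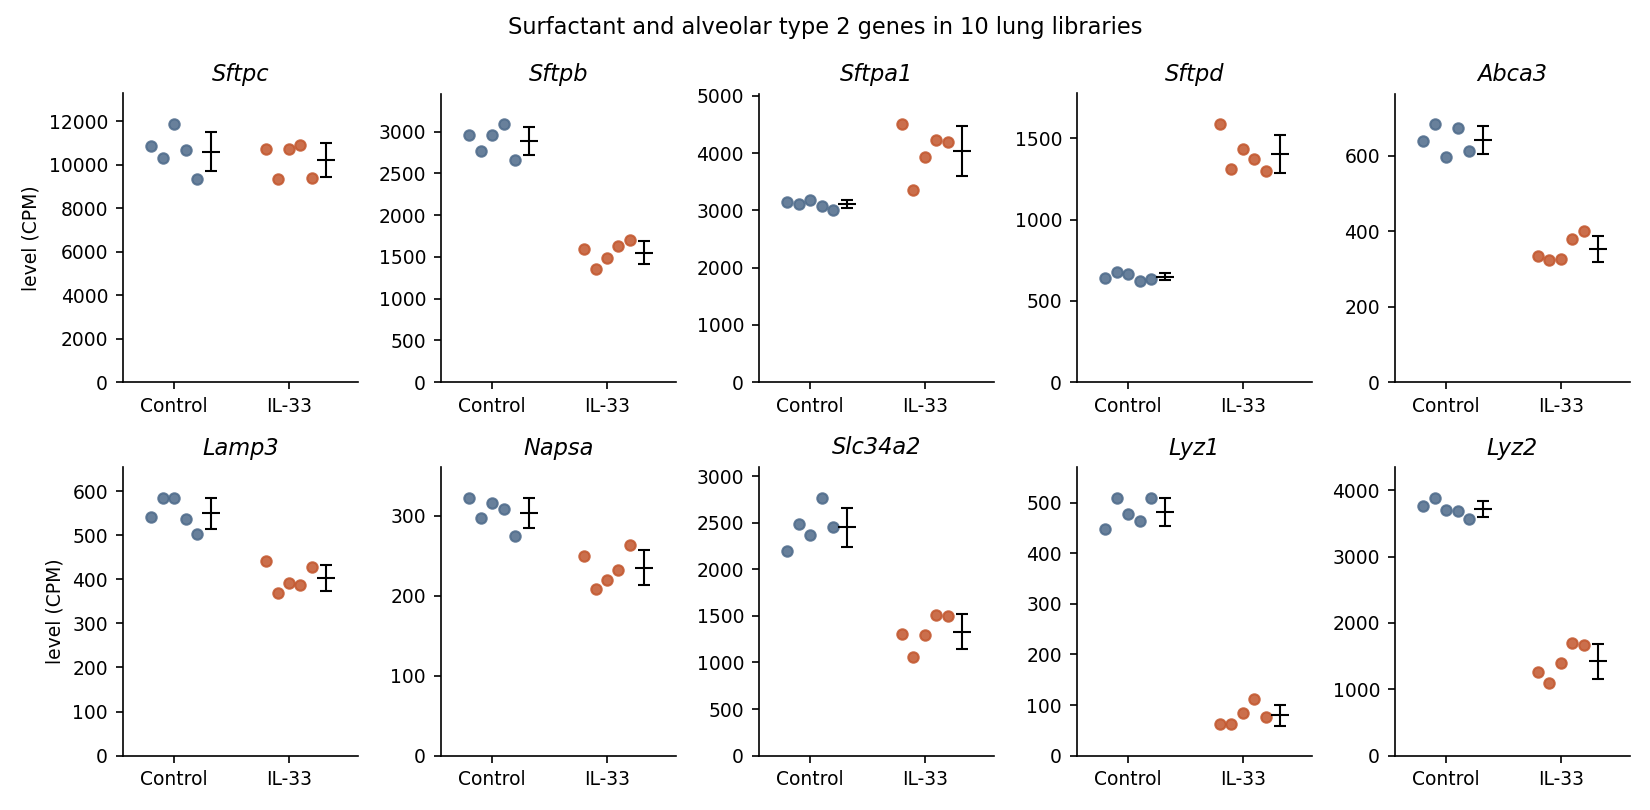
Level of each of the 10 genes in CPM (vertical axes, from 0) in the 5 control and 5 IL-33 libraries; points are libraries in replicate order, the dash and bar are mean and SD. Sftpc overlaps between groups, Sftpa1 and Sftpd lie higher with IL-33, and the other 7 lie lower.

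The upstream sequences of 4 genes are shown: Sftpb and Sftpa1, whose windows hold the motif of a surfactant gene regulator, and the neighbouring lysozyme genes, whose changes differed in size. Sequences are the 250 bases before the RefSeq start, from RefSeq on GRCm38.p6, which is the C57BL/6J strain and not BALB/c, and 7 of the 10 genes matched that table. Capitals mark CTCAAG, the core of the binding motif of NKX2-1, the lung lineage factor that drives surfactant genes, searched on both strands (CTTGAG on the other). Sftpb lies at chr6:72304360-72304609 (plus strand) and Sftpa1 at chr14:41131538-41131787 (plus strand).
Sftpb: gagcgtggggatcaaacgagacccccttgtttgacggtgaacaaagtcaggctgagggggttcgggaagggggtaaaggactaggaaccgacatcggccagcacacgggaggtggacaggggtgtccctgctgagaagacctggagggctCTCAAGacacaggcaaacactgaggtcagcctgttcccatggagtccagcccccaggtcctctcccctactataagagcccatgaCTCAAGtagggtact
Sftpa1: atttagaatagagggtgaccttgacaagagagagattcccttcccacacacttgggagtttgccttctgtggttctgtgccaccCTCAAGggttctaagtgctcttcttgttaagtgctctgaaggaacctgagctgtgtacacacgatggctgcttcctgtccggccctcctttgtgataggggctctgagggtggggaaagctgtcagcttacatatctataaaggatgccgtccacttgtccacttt

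Sftpb held the motif at 100 and at 15 bases before its start, and Sftpa1 at 166 bases. None of the other 5 matched genes held it in this window, and 13.3% of 32851 promoter windows of that length did. A match is a description of the letters and says nothing of binding.

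Lyz1 and Lyz2 are adjacent on chromosome 10, 5475 bases apart with no annotated gene between them. Below, capitals mark bases that differ or are unpaired in a global alignment of Lyz1 (chr10:117292869-117293118, minus strand) and Lyz2 (chr10:117282273-117282522, minus strand).
Lyz1: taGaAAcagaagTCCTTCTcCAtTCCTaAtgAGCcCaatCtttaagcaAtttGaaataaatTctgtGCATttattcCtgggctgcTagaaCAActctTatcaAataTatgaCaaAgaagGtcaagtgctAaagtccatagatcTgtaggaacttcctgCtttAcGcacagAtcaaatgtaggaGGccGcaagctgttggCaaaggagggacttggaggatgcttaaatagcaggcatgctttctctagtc
Lyz2: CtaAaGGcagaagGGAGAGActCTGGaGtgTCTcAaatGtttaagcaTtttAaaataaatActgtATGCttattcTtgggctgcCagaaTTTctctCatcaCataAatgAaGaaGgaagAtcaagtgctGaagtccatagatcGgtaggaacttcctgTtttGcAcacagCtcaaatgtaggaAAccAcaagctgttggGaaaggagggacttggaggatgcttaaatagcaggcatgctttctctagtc

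The alignment had 200 identical and 48 substituted positions, and the last 50 bases before the RefSeq start were identical. In the GENCODE annotation Lyz2 starts further upstream, at 117282321, so most of that run lies inside the annotated Lyz2 gene. For Lyz1 the window ends where the GENCODE gene begins. In the transcripts, 6.22% of the 75-base windows of Lyz1 occurred in Lyz2 and 5.96% of those of Lyz2 in Lyz1, so most windows are particular to 1 of the 2 genes.

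Among the hydrophobic surfactant proteins, Sftpc (ENSMUSG00000022097, chromosome 14, 70520949 to 70524081), whose product is a lipopeptide of the surfactant film, stood at 10854, 10306, 11857, 10681 and 9354 CPM in control libraries 1 to 5. IL-33 libraries 1 to 5 had 10745, 9358, 10706, 10931 and 9372 CPM. The groups overlapped, with nearly the same lowest value and a lower highest value with IL-33. The means were 10610 ± 907 and 10222 ± 787 CPM, and the log2 fold change was -0.05 ± 0.07 (SE), which did not pass (edgeR adjusted p = 0.658).

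Sftpb (ENSMUSG00000056370, chromosome 6, 72304610 to 72314371), whose product is required for lamellar body formation and breathing, stood at 2959, 2762, 2954, 3086 and 2664 CPM in controls. The IL-33 libraries had 1597, 1352, 1482, 1626 and 1704 CPM. Every IL-33 library lay below every control. Sftpb fell 1.86-fold, a log2 fold change of -0.89 ± 0.07 (SE; edgeR adjusted p = 1.23e-06).

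Sftpa1 and Sftpd, the genes of the surfactant collectins, had higher RNA levels with IL-33. The rise of Sftpa1 was lost on correction for transcript length and GC content. Sftpa1 (ENSMUSG00000021789, chromosome 14, 41131782 to 41136452), encoding SP-A, stood at 3144, 3110, 3186, 3077 and 3004 CPM in controls. The IL-33 lungs had 4500, 3354, 3927, 4223 and 4198 CPM, all above the controls and with a wider spread, the lowest being library 2. Sftpa1 rose 1.30-fold (log2 0.38 ± 0.07 SE, edgeR adjusted p = 0.00235). With the trend on transcript length and GC content removed it did not pass (log2 0.18, adjusted p = 0.0956).

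Sftpd (ENSMUSG00000021795, chromosome 14, 41172214 to 41185149), encoding SP-D, lies 35.8 kb from Sftpa1, with the collectin gene Mbl1 and the gene model Gm7920 between them. It stood at 638, 677, 663, 624 and 637 CPM in controls and at 1586, 1314, 1437, 1372 and 1302 CPM with IL-33. The lowest IL-33 library was thus far above the highest control. Sftpd rose 2.16-fold (log2 1.11 ± 0.06 SE, edgeR adjusted p = 6.54e-08), the largest rise of the 10 genes. Mbl1, a mannose-binding lectin, went from 2.53 ± 0.369 to 1.62 ± 0.487 CPM and fell by 0.65 on the log2 scale (edgeR adjusted p = 0.0201), a call that was lost without control 5 (log2 -0.57, adjusted p = 0.0509). Colec12, a membrane-bound collectin that acts as a scavenger receptor, fell from 233 ± 10.5 to 173 ± 29.2 CPM (log2 -0.43, edgeR adjusted p = 0.00219), and did not pass with the length and GC trend removed (log2 -0.14, adjusted p = 0.162). The collectin family thus had 2 of 4 tested genes higher and 2 lower, beside 35.1% and 34.8% of all tested genes.

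Abca3, Lamp3, Napsa and Slc34a2 fell. Abca3 (ENSMUSG00000024130, chromosome 17, 24351950 to 24410201), the transporter that loads phospholipid into lamellar bodies, stood at 639, 682, 595, 672 and 613 CPM in controls. With IL-33 it stood at 335, 324, 327, 378 and 401 CPM, every value below the controls. The fall was 1.81-fold (log2 -0.86 ± 0.07 SE, edgeR adjusted p = 8.56e-07). An opposite-strand gene model, D330041H03Rik, overlaps 914 of its exonic bases and held 65 to 196 reads per library, few beside Abca3. The strand setting of the counting is not stated, so reads in the shared bases may have been left out as ambiguous. The effect of the overlap on Abca3 was not tested.

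Lamp3 (ENSMUSG00000041247, chromosome 16, 19653378 to 19706375), a lamellar body membrane protein that mature dendritic cells also make, ranged from 502 to 585 CPM in controls and from 369 to 442 CPM with IL-33. It fell 1.36-fold (log2 -0.45 ± 0.06 SE, edgeR adjusted p = 0.000129). Of 13 tested mature dendritic cell markers 11 rose and 1 fell, beside 35.1% higher and 34.8% lower among all tested genes. Their summed level went from 334 to 396 CPM in controls to 757 to 951 CPM with IL-33. How much of the Lamp3 signal came from such cells was not tested.

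Napsa (ENSMUSG00000002204, chromosome 7, 44572380 to 44586862) encodes napsin A, an aspartic protease that takes part in processing SP-B. It ranged from 275 to 323 CPM in controls and from 209 to 263 CPM with IL-33, the smallest fall of the 7, 1.29-fold (log2 -0.37 ± 0.07 SE, edgeR adjusted p = 0.000752). Slc34a2 (ENSMUSG00000029188, chromosome 5, 53038081 to 53071664), the phosphate transporter of the type 2 cell surface, stood at 2192, 2483, 2366, 2765 and 2449 CPM in controls. After IL-33 it was at 1302, 1057, 1299, 1507 and 1495 CPM. The groups were apart, and the fall was 1.84-fold (log2 -0.88 ± 0.11 SE, edgeR adjusted p = 8.88e-06).

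The largest falls were in the lysozymes. Lyz1 (ENSMUSG00000069515, chromosome 10, 117287797 to 117292868), a lysozyme that marks type 2 cells in mouse lung and Paneth cells in mouse gut, stood at 449, 509, 478, 464 and 509 CPM in controls. After challenge it was at 62.9, 63.1, 84.0, 112 and 76.3 CPM. Even the highest IL-33 library, number 4, held far less than the lowest control. The fall was 6.04-fold (log2 -2.60 ± 0.16 SE, edgeR adjusted p = 1.24e-08), and 0.14% of tested genes had a lower log2 fold change.

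Lyz2 (ENSMUSG00000069516, chromosome 10, 117277331 to 117282321), the lysozyme of macrophages, neutrophils and type 2 cells, stood at 3765, 3883, 3697, 3693 and 3561 CPM in controls. With IL-33 it stood at 1259, 1090, 1392, 1698 and 1669 CPM. Every IL-33 value was below the controls, a fall of 2.62-fold (log2 -1.39 ± 0.12 SE, edgeR adjusted p = 4.66e-07). Most macrophage and neutrophil markers went the opposite way, where 35.1% of all tested genes were higher and 34.8% lower. Of 18 macrophage markers 14 rose and 4 fell, their summed level going from 605 to 691 CPM in controls to 1372 to 1955 CPM, and of 11 neutrophil markers 9 rose, their sum going from 105 to 314 CPM to 960 to 1136 CPM. Which cells held the Lyz2 reads was not tested.

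**Figure D2:**
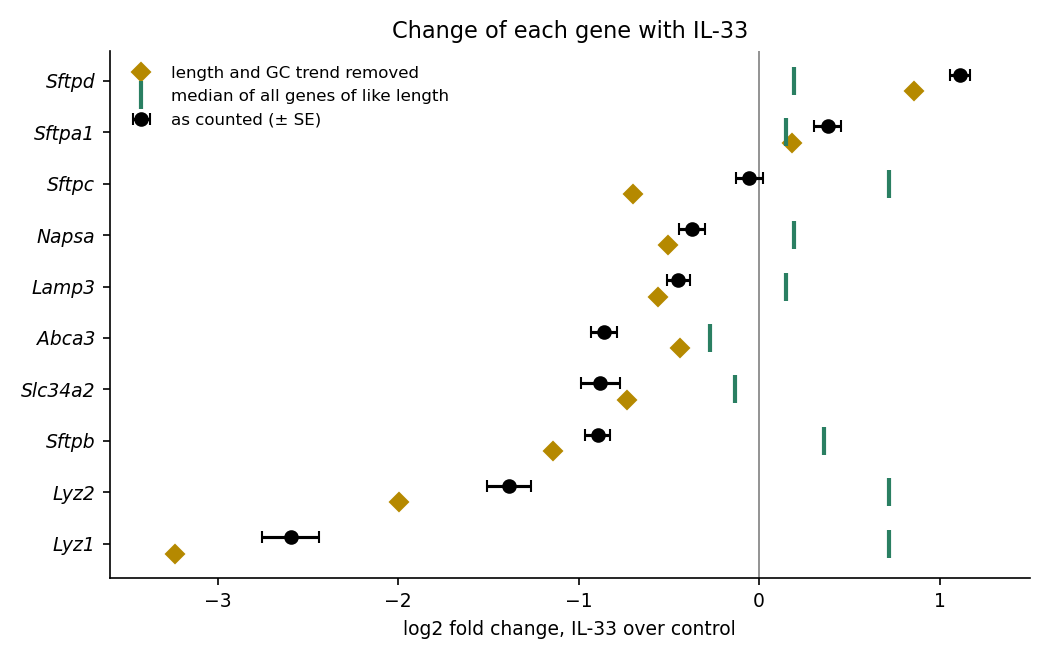
Log2 fold change (horizontal axis, IL-33 over control) of each gene as counted with its SE (black), after each library's trend on transcript length and GC content was removed (diamonds), and the median of all tested genes in the same length decile (green bars). Sftpc moves from -0.05 to -0.70, while Lyz1 and Lyz2 are the lowest and Sftpd the highest under both scales.

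Transcript length bears on several of these values, because genes with short transcripts tended towards higher values after IL-33. Sftpc, Lyz1 and Lyz2, with exonic lengths of 1034, 1263 and 1316 bases, are in the shortest length decile of tested genes, whose median log2 fold change was 0.72. Abca3, at 9374 bases, is in a length decile with a median of -0.27. With each library's trend on length and GC content removed, Sftpc passed as lower (log2 -0.70, edgeR adjusted p = 7.28e-05), while Sftpa1 no longer passed. The count then became 1 higher and 8 lower, beside 37.5% of all tested genes higher and 30.7% lower on that scale. Sftpd stayed higher, at log2 0.86, and Sftpb (-1.14), Abca3 (-0.44), Lamp3 (-0.56), Napsa (-0.50), Slc34a2 (-0.73), Lyz1 (-3.24) and Lyz2 (-1.99) stayed lower. Whether the trend is technical was not tested.

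Ratios between 2 genes within a library do not depend on library scaling. The ratio of Lyz1 to Lyz2 reads was 0.119 to 0.143 in controls and 0.0457 to 0.0658 with IL-33, lower by a mean of 1.22 on the log2 scale. The 2 lysozymes therefore fell unequally, and with the length and GC trend removed the difference was -1.25. The ratio of Sftpd to Sftpa1 went from 0.203 to 0.218 in controls to 0.310 to 0.392 with IL-33, a mean log2 difference of 0.74, and 0.68 with the trend removed.

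The ratio of Sftpb to Sftpc went from 0.249 to 0.289 in controls to 0.138 to 0.182 with IL-33, a log2 difference of -0.84. With the trend removed it was -0.45. The ratio of Abca3 to Sftpc went from 0.0502 to 0.0662 to 0.0305 to 0.0428, a log2 difference of -0.81, but its direction turned with the trend removed, to 0.26 (two-sided exact permutation p = 0.0238). Each of the 4 ratios as counted separated all 5 IL-33 libraries from all 5 controls, with a two-sided exact permutation p of 0.00794, the smallest that 5 against 5 libraries can give, and 0.00794 after Benjamini-Hochberg adjustment over the 4 ratios.

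**Figure D3:**
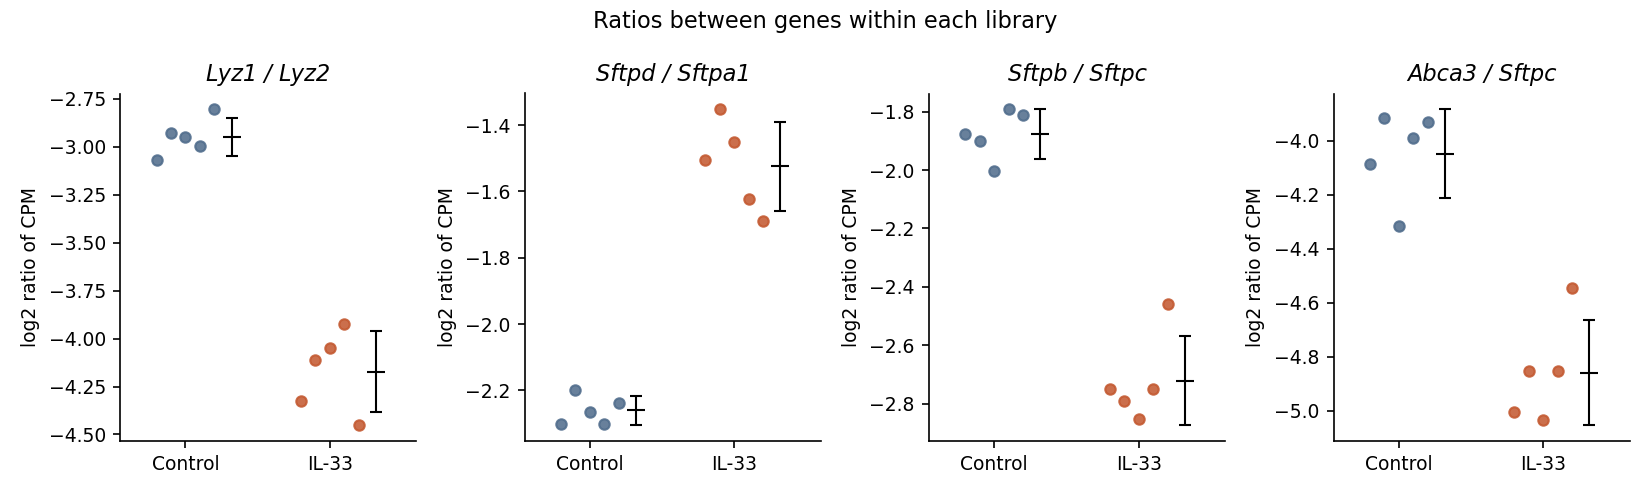
Log2 ratio of the CPM of 2 genes (vertical axes) in each control and IL-33 library; points are libraries, the dash and bar are mean and SD. Sftpd / Sftpa1 lies higher with IL-33 and the other 3 lie lower, with no overlap as counted.

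Levels can be compared between genes as CPM per kilobase of exon. On that scale Sftpc led in both groups, at 10262 ± 877 in controls and 9886 ± 761 with IL-33. In controls it was followed by Lyz2 (2827 ± 89.0), Sftpb (1466 ± 85.9), Sftpa1 (1085 ± 24.1), Slc34a2 (489 ± 41.6), Lyz1 (381 ± 21.5), Sftpd (268 ± 8.94), Lamp3 (164 ± 10.4), Napsa (114 ± 7.01) and Abca3 (68.3 ± 3.98). No neighbours in that order overlapped. With IL-33 Sftpa1 came 2nd (1413 ± 152) and Sftpd passed Slc34a2 (580 ± 47.9 and 266 ± 36.7), while Lyz1 dropped to 9th (63.0 ± 15.9). There the ranges of Sftpa1 and Lyz2 (1080.1 ± 199), of Lyz2 and Sftpb (789 ± 69.8) and of Napsa (88.3 ± 8.20) and Lyz1 overlapped. Among all 53360 genes Sftpd moved from rank 82 to 53 and Lyz1 from 52 to 761.

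**Figure D4:**
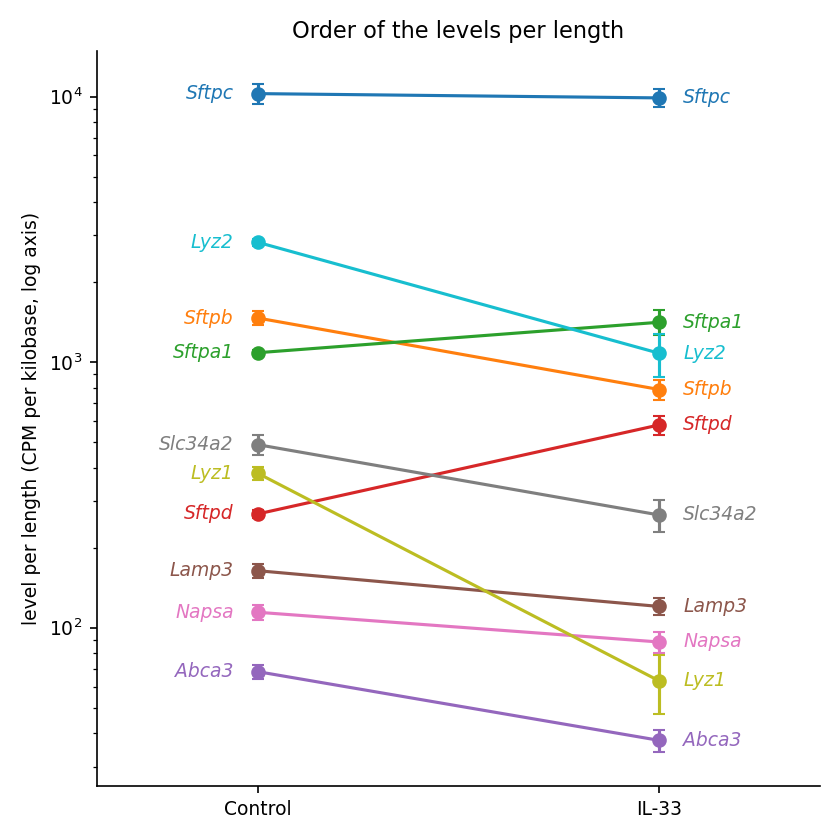
Level per length of the 10 genes in control and IL-33 lungs (CPM per kilobase, log axis), mean and SD of 5 libraries. The lines of Sftpd and Lyz1 cross those of several other genes, while Sftpc stays on top.

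Relative to the mean, as coefficient of variation, the spread between libraries was wider with IL-33 for 9 of the 10 genes, Sftpc being the exception. The SD itself was smaller with IL-33 for Sftpc, Sftpb, Abca3, Lamp3, Slc34a2 and Lyz1, whose means were also lower. How often the coefficient was larger over all genes was not tested. The coefficient of variation of Lyz1 was 5.64% in controls and 25.2% with IL-33, and that of Lyz2 3.15% and 18.4%. With each group centred on its mean, the log2 levels of the 10 genes were correlated across the 10 libraries at a median Pearson r of 0.438 over 45 pairs, from -0.352 to 0.894, and 38 pairs were above 0. The highest was Sftpb with Napsa (0.894), followed by Lyz2 with Slc34a2 (0.810), and the lowest Abca3 with Sftpd (-0.352). All pairs share the same libraries and their depth, so these are descriptions.

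Of 28 genes of surfactant lipid synthesis 16 fell and 4 rose as counted, with a median log2 fold change of -0.41. Among all tested genes 34.8% were lower and 35.1% higher. The largest falls were Gpam, which adds the first acyl chain to glycerol phosphate (91.1 ± 17.9 to 29.8 ± 11.9 CPM, log2 -1.59), and Lpin2, a phosphatidate phosphatase (251 ± 45.3 to 94.7 ± 17.2 CPM, log2 -1.40). Lpcat1, which makes dipalmitoyl phosphatidylcholine in type 2 cells, fell from 370.4 ± 25.7 to 208 ± 12.5 CPM. Pcyt1a, the rate-limiting enzyme of phosphatidylcholine synthesis, fell from 123 ± 3.72 to 71.3 ± 7.66 CPM. Scd1, the most abundant of the list and a fatty acid desaturase, had 926 ± 277 and 1093 ± 218 CPM and did not pass. After the length and GC correction 13 were lower and 5 higher, beside 30.7% and 37.5% of all tested genes. The median was then -0.071, beside 0.047 for all tested genes. As counted, the number of higher genes was 2 without control 1, 4 or 5 or without IL-33 library 1, 3 or 4. Lpcat1, Pcyt1a and other list members given here beyond the 2 largest changes and the most abundant were chosen after their values were seen.

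Of 24 genes of surfactant processing, lamellar body formation and secretion 8 rose and 6 fell, with a median of -0.0016. Neither count exceeds the share of all tested genes, 35.1% higher and 34.8% lower, so the changes below describe single genes. Ctsb, a lysosomal protease, rose from 441 ± 32.3 to 1399 ± 224 CPM, and Cd63, a lysosomal tetraspanin, from 107 ± 4.30 to 310.5 ± 51.3 CPM. Ctsh, a cathepsin that processes SP-B and SP-C, rose by 0.27 on the log2 scale. Atp8a1, a phospholipid flippase, fell from 351 ± 62.5 to 149 ± 20.5 CPM, while Lamp1, the most abundant, had 814 ± 18.0 and 813 ± 15.1 CPM. Ctsb and Cd63 are lysosomal genes that macrophages also express.

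Of 14 tested genes of surfactant sensing and clearance 5 rose and 7 fell, beside 35.1% higher and 34.8% lower among all tested genes. Adgrf5, the receptor through which type 2 cells hold the surfactant pool in check and which endothelium also makes, fell from 1887 ± 163 to 649.6 ± 135 CPM (edgeR adjusted p = 6.27e-07). Cd36, a lipid uptake receptor, fell from 1561 ± 88.2 to 1049 ± 129 CPM, and Marco, a macrophage scavenger receptor, from 3.52 ± 1.33 to 1.59 ± 0.631 CPM. Npc2, a lysosomal sterol carrier, rose from 697 ± 28.0 to 1340.0 ± 56.4 CPM.

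Of 19 other tested alveolar type 2 genes 11 fell and 5 rose, with a median of -0.57, beside 34.8% lower and 35.1% higher among all tested genes. The summed level of that list still went up, from 4235 to 5460 CPM in controls to 6468.5 to 7088 CPM with IL-33. That rise lay largely in Cd74 and Cxcl15 and does not describe the list as a whole. Cxcl15, an abundant member, rose from 1329 ± 297 to 2025 ± 280 CPM (log2 0.61, edgeR adjusted p = 0.00297). With the length and GC trend removed Cxcl15 did not pass (log2 0.22, edgeR adjusted p = 0.162). Acoxl, an acyl-CoA oxidase-like gene, fell from 30.8 ± 3.15 to 5.37 ± 1.02 CPM (log2 -2.49), and Bex2 from 20.6 ± 3.65 to 3.73 ± 1.14 CPM. Aqp3, a water and glycerol channel, rose from 1.89 ± 1.11 to 14.0 ± 2.33 CPM (log2 2.90), and Cd74, the invariant chain that antigen-presenting cells also make, from 912 ± 125 to 2447 ± 224 CPM. Of 17 type 2 cell transcription factors 8 fell and 2 rose, beside the same 34.8% lower and 35.1% higher. The 2 that rose were Elf5 (log2 0.74) and Klf5 (log2 0.36). Etv5, which maintains type 2 cell identity, fell from 156 ± 25.3 to 69.2 ± 15.0 CPM, Foxa1 from 55.9 ± 11.1 to 28.8 ± 7.36 CPM, and Nkx2-1, the most abundant per length, from 222 ± 13.4 to 179 ± 11.3 CPM, or log2 -0.31. With the length and GC trend removed, 6 of these 17 were higher and 7 lower, beside 37.5% and 30.7% of all tested genes.

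**Figure D5:**
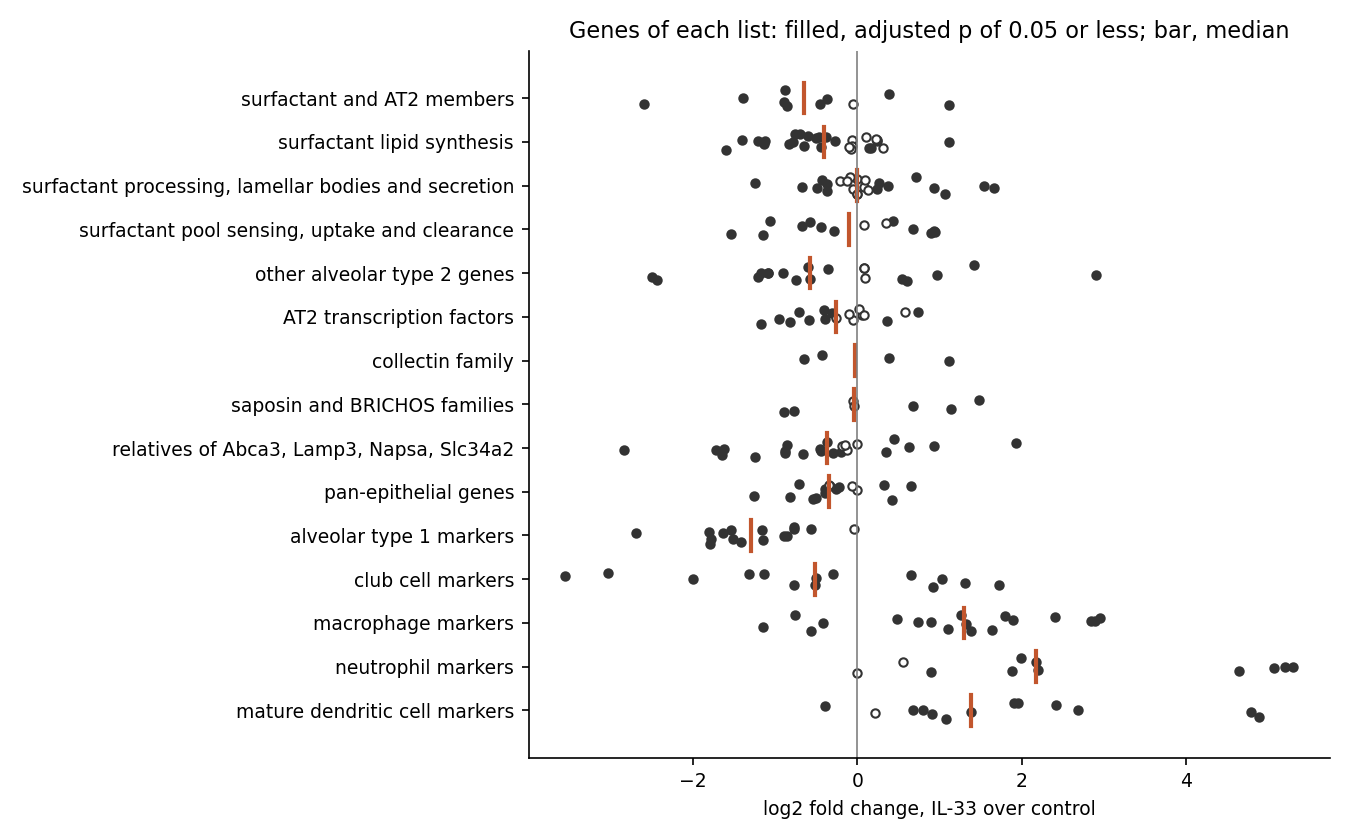
Log2 fold change (horizontal axis, IL-33 over control) of the tested genes of each list; filled points passed an adjusted p of 0.05, open points did not, and the bar is the list's median. The type 2 cell lists have medians below 0, alveolar type 1 markers lie lowest, and macrophage, neutrophil and dendritic cell markers lie to the right; genes in more than 1 list are drawn in each.

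Most other epithelial markers fell as well, where 34.8% of all tested genes were lower and 35.1% higher. Of 16 pan-epithelial genes 10 fell and 3 rose, with a median of -0.34 and summed levels of 2359 to 2613 CPM in controls and 1751 to 2017 CPM with IL-33. Cldn18, a tight junction claudin of alveolar epithelium, fell from 851 ± 72.5 to 355 ± 40.0 CPM, and Esrp2, an epithelial splicing factor, from 40.7 ± 3.64 to 23.1 ± 3.15 CPM. The drop in the summed level lay largely in Cldn18. The 3 that rose were Spint2 (log2 0.65), Krt18 (log2 0.42) and the general epithelial marker Epcam (log2 0.32). With the length and GC trend removed, Krt18 and Epcam did not pass. Of 16 alveolar type 1 markers 15 fell, with a median of -1.29. Club cell markers are relevant because club cells also express Sftpb, Sftpa1 and Sftpd. These markers were lower in 9 and higher in 5 of 14 cases, the higher count being near the share of all tested genes. Their summed level went from 23751 to 25599 CPM down to 14225 to 16345 CPM. The share of each surfactant gene's reads that club cells held was not tested.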

How the data were processed

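Lung RNA of 10 BALB/c mice was polyA-selected and made into stranded libraries, per the labels' protocols. The submitters' processing notes name FastQC 0.11.6, MultiQC 1.6, STAR 2.5.4b, HTSeq 0.9.1 and GRCm38, while the annotation release, strand setting and read length are not stated. The deposited files hold raw counts of reads per gene. Records in no gene (10.4% to 13.7%), ambiguous records (0.862% to 0.945%) and multiply aligned records (15.0% to 22.8%) entered neither library sizes nor tests. Multiply aligned records were 15.0% to 16.15% in controls and 19.97% to 22.76% with IL-33. Records in no gene were 10.39% to 11.08% in controls and 11.36% to 13.71% with IL-33. Neither range overlapped between groups, and the effect of this difference on the levels was not tested. No pair of libraries in a group was a duplicate by chi-square (5.32 to 30.4 per degree of freedom). P-values set the difference between groups against the spread between these samples.

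Groups follow the treatment label. The main model, in edgeR 4.0.16 under R 4.3.3, had 1 term, the group, with filterByExpr and TMM scaling (0.969 to 1.03), and p-values were adjusted by Benjamini-Hochberg over all tested genes. The biological coefficient of variation was 0.136. SEs come from log2(CPM + 0.1). Lengths, GC content, positions and overlaps come from GENCODE M21 on GRCm38, and 53360 genes had both length and GC content. The length and GC correction fitted each library's deviations with splines of 5 degrees of freedom on log2 length and on GC content and entered them as offsets. Ratios were tested by exact permutation over libraries. The model and the permutation test were tested on simulated data.

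The 10 genes, all lists, tests and alternatives were chosen with earlier results of these data known. Named genes are the 10, of each other list the 2 called genes with the largest change at a mean of at least 1 CPM and the most abundant per length, and the 5 genes of at least 10 CPM most correlated with Sftpc. A gene that this rule names is not reported here. Alternatives were DESeq2 1.42.0, limma-voom (limma 3.58.1), other scalings and filters, a replicate block, an adjusted p of 0.01, the length and GC correction, and leaving out each library. Python 3.11.15, numpy 2.4.6, scipy 1.17.1, pandas 2.3.3, Biopython 1.88 and matplotlib 3.10.9 were used for tables, alignment and plots.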

Additional observations from a re-analysis of the deposited data

Results flagged for a closer look

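Over 108 groups of 5 libraries tested for a single library far from the others, 4 stood out, where chance flags about 1 in 20. The log2 ratio of Sftpb to Sftpc in IL-33 library 5 was -2.46, while the other IL-33 libraries lay between -2.85 and -2.75; it was still below every control. Ctsb in IL-33 library 2 was at 1784 CPM, above 1206 to 1371 CPM in the others. Foxa1 in control library 2 was at 75.1 CPM, above 47.2 to 54.3 CPM in the other controls. Scgb1a1, the main club cell secretory product, was at 10698 CPM in IL-33 library 5, below 12126 to 12636 CPM in the other IL-33 libraries.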

How the results depend on the processing

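Of the 10 genes, 8 kept their direction and call under all 21 alternatives: Sftpb, Sftpd, Abca3, Lamp3, Napsa, Slc34a2, Lyz1 and Lyz2. The exceptions were Sftpc, called lower, and Sftpa1, not called, under the length and GC correction with or without the replicate block; the count of higher members was then 1 in both. The Abca3 to Sftpc ratio turned to 0.26 under that correction; these genes differ widely in length, and the cause was not tested. Leaving out each library gave 2 higher and 7 lower members every time, 10517 to 11089 genes called, and log2 fold changes from -0.11 to -0.020 for Sftpc, 0.34 to 0.44 for Sftpa1 and -2.75 to -2.52 for Lyz1. The ratios then ranged from -1.28 to -1.15 (Lyz1 to Lyz2), 0.69 to 0.78 (Sftpd to Sftpa1), -0.91 to -0.81 (Sftpb to Sftpc) and -0.89 to -0.77 (Abca3 to Sftpc).

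The labels do not say whether replicate numbers pair the samples, and a check on 5 pairs cannot settle it. Of the 5 same-numbered pairs 3 had r over 0.1 (-0.0386 to 0.285), and 1 of 5 controls was closest to its own number. With the replicate block 11122 genes were called, against 10975 without, and no call among the 10 genes changed. Paired by number, the ratio differences were the same, -1.22, 0.74, -0.84 and -0.81, but 5 pairs allow no exact p below 0.0625, so none could pass. Among other named genes, Scd1 passed without control 2 (log2 0.42) and Lamp1 passed as lower under the length and GC correction (log2 -0.17). Counts in lists that moved over 1.5 times were, with the length and GC trend removed, higher transcription factors (2 to 6, or 7 with the block), lower saposin and BRICHOS genes (2 to 4), higher club cell markers (5 to 3), collectins (2 higher and 2 lower to 1 and 1), the 1 lower dendritic cell marker (to 0) and, with the block too, higher relatives (5 to 8). Higher lipid synthesis genes went from 4 to 2 with library size alone, no filter, the block or an adjusted p of 0.01; at that p higher transcription factors went to 1, and lower collectins to 1, as without control 5. Depth does not limit the 10 genes, each with at least 548 reads per library, but does limit Mbl1, Ly6g and Camp.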

Other observations

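Relatives of the 10 genes included both rises and falls. In the saposin and BRICHOS families, to which SP-B and SP-C belong, Psap, the lysosomal saposin precursor, rose from 868 ± 43.1 to 1917 ± 245 CPM and Gm2a, the GM2 activator, from 106 ± 14.1 to 295 ± 34.9 CPM. With Sftpb and Sftpc included, 3 of 7 tested genes rose and 2 fell, Sftpb being 1 of the 2. Among all tested genes 35.1% were higher and 34.8% lower, so such counts are not particular to these families. Of 23 tested relatives of Abca3, Lamp3, Napsa and Slc34a2, those 4 included, 14 fell and 5 rose, with a median of -0.37. Abca17, a related transporter that holds 1.09% of Abca3's 75-base windows, fell from 30.5 ± 2.75 to 4.15 ± 1.37 CPM, and Ctse, an aspartic protease like napsin A, rose from 13.7 ± 5.79 to 53.0 ± 7.72 CPM. Of 10 lysozyme family genes only Lyz1 and Lyz2 passed the filter on low counts.

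Among markers of other cells named by the rule, the log2 fold changes of the alveolar type 1 genes were -2.69 for Col4a3, -1.80 for Sema3e and -0.56 for Ager. Those of the club cell genes were -3.03 for Scgb3a2 and -0.51 for Scgb1a1. The macrophage genes C1qa and C1qb had 2.89 and 2.95, the neutrophil genes Ly6g, Camp and S100a9 had 5.30, 5.20 and 2.20, and the dendritic cell genes Ccl22 and Ccl17 had 4.88 and 4.79. All of these passed the test.

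With groups centred, the genes of at least 10 CPM whose levels across the 10 libraries were most like Sftpc, out of 10906, were Kcnk1 (Pearson r 0.898), Zfp944 (0.875), Lat (0.870), Fam98c (0.869) and Cd3e (0.855). These are the highest of many values over few libraries that share their depth. Among the 10 genes themselves Sftpa1 and Sftpd were closest to Sftpc, with 0.513 each.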
